A study of Mus musculus with 6 samples.

Results

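The S100 genes of myeloid cells were followed here through open chromatin in murine acute myeloid leukaemia cells with and without mycophenolate mofetil (MMF). The set held 8 genes of mouse chromosome 3: S100a8, S100a9, S100a4, S100a6, S100a10, S100a11, S100a1 and S100a13. Every peak that overlapped the body of one of these genes or the 10 kb on either side of it was kept, on build mm10 with the GENCODE M21 gene models. Peaks of the 6 samples were merged wherever they shared at least 1 bp, and 36 of the 112852 merged regions fell in the S100 windows, which cover 173.5 kb.

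The samples were L-GMP cells, the leukaemic granulocyte-macrophage progenitors that act as leukaemia stem cells (LSCs) in the mouse model driven by the MLL-AF9 fusion. Every sample carried the fusion, was labelled wild type in genotype and blood in tissue, and was grown with mouse interleukin-3 and serum. There were 3 control samples and 3 samples treated with MMF for 24 h. MMF is a prodrug of mycophenolic acid, which blocks IMP dehydrogenase and so guanine nucleotide synthesis. The 24 h are those of the labels and of the study's methods, and its figure legends give a shorter time. The dose is not in the labels, and the methods and legends differ on it too, so none is given. The labels do not say whether the 3 samples of a group came from separate cultures or animals, so p-values measure the spread between these samples. In such bulk samples, a larger share of cells with an open site and a more open site in each cell cannot be told apart.

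S100 proteins are small calcium-binding proteins of the EF-hand family. S100A8 and S100A9 pair into calprotectin, which fills the cytosol of neutrophils and monocytes, binds zinc and manganese, and signals through TLR4 and the receptor RAGE once released. S100A4 and S100A6 are found in many motile and dividing cells, S100A10 and S100A11 bind annexins at membranes, S100A1 acts on calcium handling in muscle and S100A13 takes part in the release of growth factors that lack a signal peptide.

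The sequences around the summits that carried the largest differences, or that were listed in every MMF sample and no control, are shown first, since the values below refer to them. Each runs 5′ to 3′ on the plus strand and covers the 200 bases centred on the summit, less any base of an annotated UTR. The bases were read from the RefSeq copy of GRCm38. Capitals mark matches to a C/EBP motif (TTGCNNAA), a PU.1 motif (GAGGAAGT), a RUNX motif (TGTGGTT) or an AP-1 motif (TGANTCA) on either strand. The promoters of S100a8 (chr3:90668900-90668977) and S100a9 (chr3:90695722-90695909) come first and are followed by 3 regions between genes in the same domain, at chr3:90659725-90659924, chr3:90678748-90678947 and chr3:90686863-90687062.
S100a8 promoter: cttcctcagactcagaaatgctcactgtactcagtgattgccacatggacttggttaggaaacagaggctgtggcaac
S100a9 promoter: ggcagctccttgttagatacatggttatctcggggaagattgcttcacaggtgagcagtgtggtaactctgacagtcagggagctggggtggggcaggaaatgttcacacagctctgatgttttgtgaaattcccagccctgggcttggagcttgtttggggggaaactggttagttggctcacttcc
9.2 kb upstream of S100a8: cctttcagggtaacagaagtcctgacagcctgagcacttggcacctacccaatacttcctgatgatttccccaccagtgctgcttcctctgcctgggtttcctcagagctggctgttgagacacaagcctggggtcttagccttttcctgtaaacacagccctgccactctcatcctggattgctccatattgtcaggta
9.9 kb downstream of the S100a8 start: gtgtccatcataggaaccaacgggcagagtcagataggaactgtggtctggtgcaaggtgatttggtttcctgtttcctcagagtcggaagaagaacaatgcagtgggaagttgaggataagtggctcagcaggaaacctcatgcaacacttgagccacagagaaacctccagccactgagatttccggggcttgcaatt
8.7 kb downstream of the S100a9 start: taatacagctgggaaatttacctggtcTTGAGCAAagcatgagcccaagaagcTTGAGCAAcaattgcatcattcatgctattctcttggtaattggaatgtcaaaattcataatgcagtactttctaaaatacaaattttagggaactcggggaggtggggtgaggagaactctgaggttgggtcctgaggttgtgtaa
The other 3 regions lay outside that domain. They were a region upstream of S100a11 that rose with MMF (chr3:93512790-93512989) and the pair of regions with a peak in all 3 MMF lists and in no control list (chr3:93511928-93512127 and chr3:90627495-90627694).
7.6 kb upstream of S100a11: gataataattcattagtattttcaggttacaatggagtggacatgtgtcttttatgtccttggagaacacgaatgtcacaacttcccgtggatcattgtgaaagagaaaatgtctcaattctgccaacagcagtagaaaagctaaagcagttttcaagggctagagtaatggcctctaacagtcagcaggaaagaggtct
8.5 kb upstream of S100a11, listed with MMF: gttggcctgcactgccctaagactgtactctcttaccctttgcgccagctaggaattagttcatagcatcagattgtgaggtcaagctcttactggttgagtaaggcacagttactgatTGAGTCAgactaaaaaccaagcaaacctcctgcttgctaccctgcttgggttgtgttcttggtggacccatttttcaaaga
14.3 kb downstream of the S100a6 start, listed with MMF: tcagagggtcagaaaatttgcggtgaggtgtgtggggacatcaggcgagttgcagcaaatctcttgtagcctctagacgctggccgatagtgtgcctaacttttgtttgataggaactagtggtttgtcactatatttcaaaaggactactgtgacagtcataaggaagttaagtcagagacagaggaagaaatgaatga
The region downstream of S100a9 held the C/EBP motif at 2 places, both read as TTGAGCAA and starting at -73 and -47 bases from the summit, 26 bases apart. The listed region upstream of S100a11 held 1 AP-1 match, 19 bases after the summit. No match to the 4 motifs fell in the other 6 stretches.

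The value used for each peak is the number of reads piled up at its summit divided by the genome-wide background of the same sample, called reads per background below. Both were solved from the deposited fold enrichment and p-value of each peak. Summits held whole numbers of reads in 100% of the peaks, within 0.05 of a read's step. The lists of the control samples held 58496 to 63911 peaks and those of the MMF samples 80893 to 86556, on background levels of 0.620 to 0.729 and 0.676 to 0.909. Median summit reads ran from 14 to 19 over the 6 samples, so single regions rest on few reads. Of 7 progenitor and LSC marker genes, Kit, Hoxa9 and Meis1 had a promoter peak in all 6 lists and Mpo in none. Promoters of 3 T cell, 3 B cell and 3 keratinocyte markers had no peak in any list. The promoter of the erythroid marker Klf1 had one in all 6 lists, at 104.5 to 132.2 reads per background, and that of Gata1 in none.

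More peaks were listed in the S100 windows with MMF. The 3 control lists held 24, 25 and 24 peaks there and the 3 MMF lists 30, 30 and 29, or 24.3 ± 0.577 against 29.7 ± 0.577 (SD, n = 3 each, two-sided exact permutation p = 0.1, the lowest that 3 against 3 allows). As a share of each list, which is longer with MMF, the order was the other way: 0.0396% ± 0.00183 of control peaks and 0.0351% ± 0.000647 of MMF peaks lay in the windows (n = 3 each, exact permutation p = 0.1). When every list was cut to its 58496 strongest peaks the share differed by 0.00114 percentage points in favour of MMF (exact permutation p = 0.7), so the direction of the share rests on the length of the lists.

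Of the 36 regions, 18 had a peak in all 6 lists. A further 9 had peaks in MMF lists alone, 2 of them in 3 lists, 4 in 2 lists and 3 in 1 list. The MMF lists are longer, and the share over all regions was not counted, so no reading is drawn from these 9. A group of 8 had peaks in lists of both groups but not in all 6 lists, and 1 region, 18.9 kb downstream of the S100a6 start, was listed in control 2 alone. The 2 regions with peaks in 3 MMF lists and no control list are 5.56% of the 36, beside 6.0% of all regions, and none had peaks in 3 control lists and no MMF list, beside 0.182% of all regions. Both shares are near those of the genome.

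**Figure D1:**
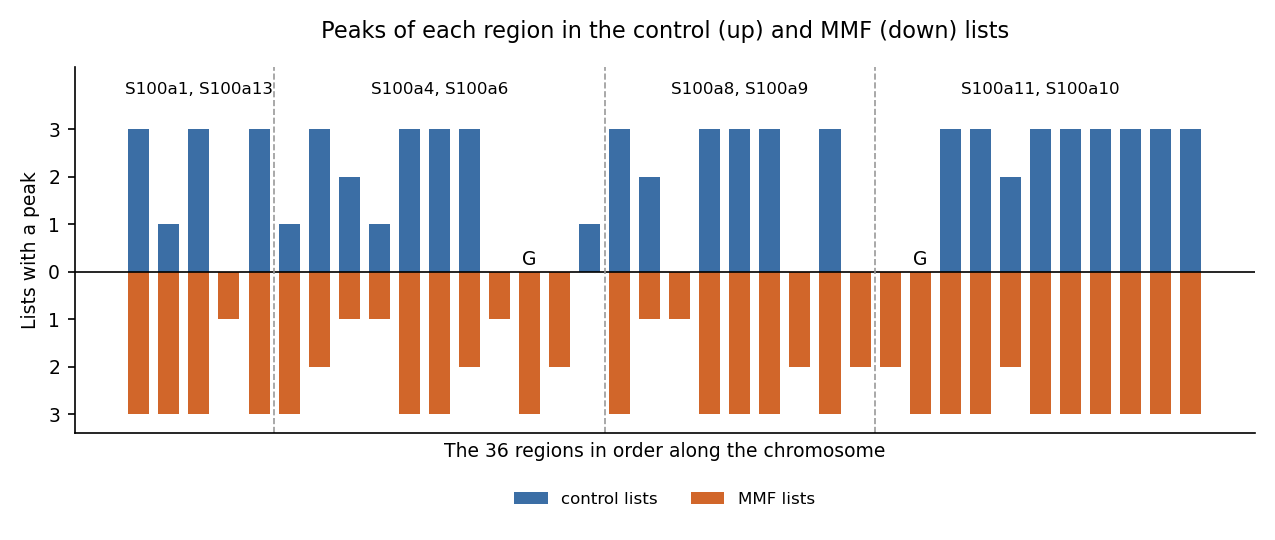
Number of lists with a peak for each of the 36 regions in order along the chromosome, control lists as bars above the line and MMF lists as bars below it (0 to 3 each), with dashed lines between gene pairs and G over the 2 regions listed in 3 MMF lists and 0 control lists. The S100a10 windows on the right hold bars of 3 on both sides in every region, whereas the S100a4 and S100a6 windows hold many partial bars.

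S100a8 and S100a9, the calprotectin pair, point at each other from opposite strands, and their neighbouring windows cover 44148 bp. They held 9 regions, of which 5 were listed in every sample, and all 5 rose with MMF, by 1.86-fold to 3.20-fold. The fit was limma across the 41182 regions with a peak in all 6 lists, and it called 18.7% of them higher with MMF at an adjusted p below 0.05, against 6 of the 18 S100 regions, or 33.3%. It called 0.964% lower and none of the S100 regions. Fragments piled up on the 5 summits of the domain with 6 to 16 reads in control samples and 19 to 38 reads in MMF samples.

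The S100a8 promoter region (chr3:90668839-90669348, with its summit 22 bases into the first exon of ENSMUSG00000056054) had 21.95, 13.02 and 14.5 reads per background in control samples 1 to 3 and 38.5, 45.3 and 37.0 in MMF samples 1 to 3. All MMF values lay above all control values. The means were 16.5 ± 4.79 and 40.3 ± 4.46 (SD, n = 3), and the difference of log2 reads per background was 1.32 ± 0.22 (SE, limma, adjusted p = 0.00314). In 2.19% of all regions tested the log2 difference was larger. The call held in 10 of 12 alternative fits and was lost where fold enrichment as deposited (adjusted p = 0.0625) or its rank (0.134) took the place of reads.

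The S100a9 promoter region (chr3:90695497-90696013, summit 89 bases upstream of the start of ENSMUSG00000056071) had 20.6, 21.7 and 14.5 reads per background in control samples and 41.8, 45.3 and 32.5 in MMF samples. The groups again did not overlap. Here the means were 18.9 ± 3.87 and 39.9 ± 6.62 and the log2 difference was 1.08 ± 0.21 (limma, adjusted p = 0.00645). Of the 12 alternative fits 9 kept this call, and those on deposited fold enrichment or on ranks did not (adjusted p = 0.099 to 0.289). The promoters of the partners stood at like levels in each group, and in control sample 3 both were at 14.5.

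The largest difference of the set was between the genes. A region 8.7 kb downstream of the S100a9 start and outside both genes (chr3:90686634-90687182), which holds the C/EBP matches shown above, had 10.98, 14.5 and 12.9 reads per background in control samples and 41.8, 48.2 and 32.5 in MMF samples. This is a 3.20-fold difference of means, and a log2 difference of 1.67 ± 0.20 (limma, adjusted p = 0.00115). Of all regions tested, 199 (0.483%) had a larger one. With MMF its level was close to that of the promoters on either side, whereas in control samples it was lower than the S100a9 promoter in each sample.

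A second region between the genes, 9.9 kb downstream of the S100a8 start (chr3:90678678-90679039), had 12.3, 8.68 and 11.3 reads per background in control samples and 34.1, 28.3 and 28.1 in MMF samples, a log2 difference of 1.496 ± 0.19 (limma, adjusted p = 0.00136). These 2 regions between the genes had the lowest control levels in the domain among those listed in every sample. Both were called under all 12 alternative fits run on the same regions, which change the measure, the scaling, the replicate block or the samples left in.

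The region 9.2 kb upstream of S100a8 (chr3:90659409-90660024) differed least of the 5. It had 19.2, 21.7 and 17.7 reads per background in control samples and 33.0, 46.7 and 29.6 in MMF samples, so that the groups did not overlap, with a log2 difference of 0.88 ± 0.20 (limma, adjusted p = 0.0142). Without MMF sample 2, the highest, the adjusted p was 0.0523, and with each sample centred on its median region it was 0.0801. Leaving out any other sample kept the call, and the fits on ranks or on deposited fold enrichment lost it (0.121 to 0.374).

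The other 4 regions of the domain had peaks in some lists alone. One in the intron of S100a9, 2.0 kb into the gene, was listed in MMF samples 1 and 2 with 14.3 and 15.6 reads per background. Another, 6.7 kb upstream of S100a9, was listed in the same samples with 15.4 and 9.92 and holds a C/EBP match of its own. One more, 1.8 kb upstream of S100a8, was listed in MMF sample 1 alone with 17.6. The region 4.6 kb upstream of S100a8 went across groups, with 16.5 and 17.7 in control samples 1 and 3 and 25.5 in MMF sample 2. None of these was tested, since a sample without a listed peak has no value.

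**Figure D2:**
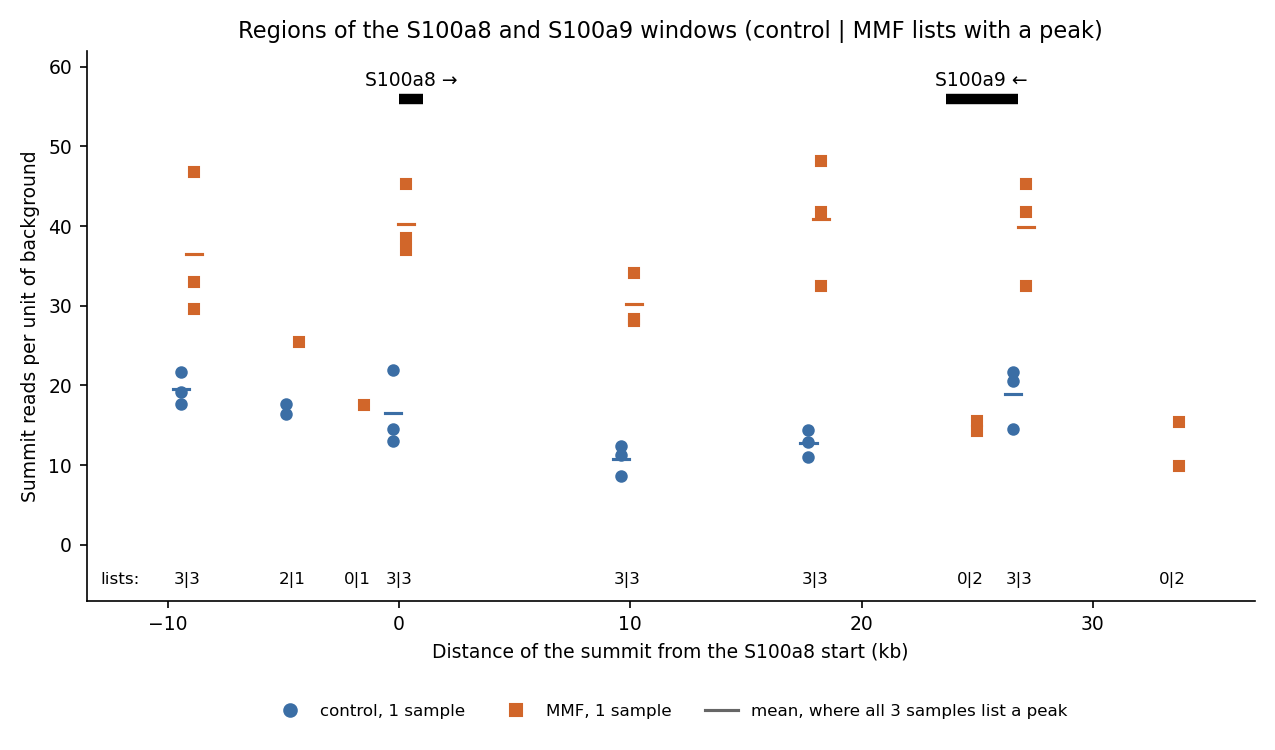
Reads per background (vertical axis) of the 9 regions of the S100a8 and S100a9 windows against the distance of the summit from the S100a8 start in kb (horizontal axis), with blue circles for control samples, orange squares for MMF samples, short lines for means where 3 samples list a peak, black bars for the genes with their direction, and the number of control and MMF lists with a peak along the bottom. At the 5 positions marked 3|3 the orange squares all lie above the blue circles, the widest apart at the region between the genes nearer to S100a9.

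Regions elsewhere in the genome and some other marker genes differed between groups as well. With values scaled to background, the median region of all 41182 rose by 0.16 on the log2 scale (1.12-fold). The median was 0.32 for the 18 S100 regions and 1.32 for the 5 of the calprotectin domain. Among all regions 64.5% had a higher mean with MMF, among the S100 regions 13 of 18 (72.2%), and 11 of 18 were above the median of all. With each sample centred on its median region instead, the median log2 difference of all regions was -0.19. Promoter values of 4 neutrophil markers, Ltf, Camp, Ngp and Cxcr2, summed to 11.6 to 43.5 reads per background in control samples and 133 to 141 in MMF samples. In these sums a promoter without a listed peak adds nothing, and in control sample 2 the sum is that of Camp alone, so part of the gap comes from unlisted peaks that have no value. Those of 4 monocyte and macrophage markers, Csf1r, Adgre1, Cd14 and Lyz2, summed in the same way to 63.6 to 75.5 and 116 to 129. Of the 4 genes of these lists with a promoter region in every list, 2 were called higher on the values scaled to background, beside 18.7% of all regions tested. The promoter region of Camp, a granule peptide gene, had a log2 difference of 1.59 (limma, adjusted p = 0.00479) and that of Lyz2, the lysozyme gene, 0.83 (limma, adjusted p = 0.00804). Adgre1 overlapped between groups (log2 difference 0.53, limma, adjusted p = 0.144), as did Cd14 (log2 difference -0.01, limma, adjusted p = 0.978). Ltf and Cxcr2 had no peak in any control list, and the other 6 genes had peaks in both groups. The sums for 7 progenitor and LSC markers were 236 to 244 and 253 to 307, with Fcgr3 and Elane each unlisted in 2 control samples and so at nothing there. None of the 3 tested was called, and 2 of them, Hoxa9 (log2 difference -0.36, limma, adjusted p = 0.149) and Meis1 (-0.40, limma, adjusted p = 0.141), had all MMF values below all control values. The same held for 17.7% of all 11687 genes with a promoter peak in all 6 lists. What part more mature cells had in the S100a8 and S100a9 values was not tested.

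How many regions were called, and in which direction, depended on the scaling. Centring each sample on its median region took 0.35 from every log2 difference. It called 6.90% of all regions higher and 13.4% lower, where the values scaled to background called 18.7% and 0.964%, so that the share of higher among all calls was 34.0% and 95.1% respectively. Of the S100 regions 5 were then called higher and 1 lower. The 2 promoters and both regions between S100a8 and S100a9 remained called, with adjusted p from 0.00726 to 0.0383 (limma). Of the 18 S100 regions 6 (33.3%) had every MMF sample above every control sample, beside 29.1% of all regions, and 6 did after centring, beside 12.3%. No S100 region had every MMF sample below every control sample before centring, beside 7.48% of all regions, and 3 did after it, beside 31.2%.

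**Figure D3:**
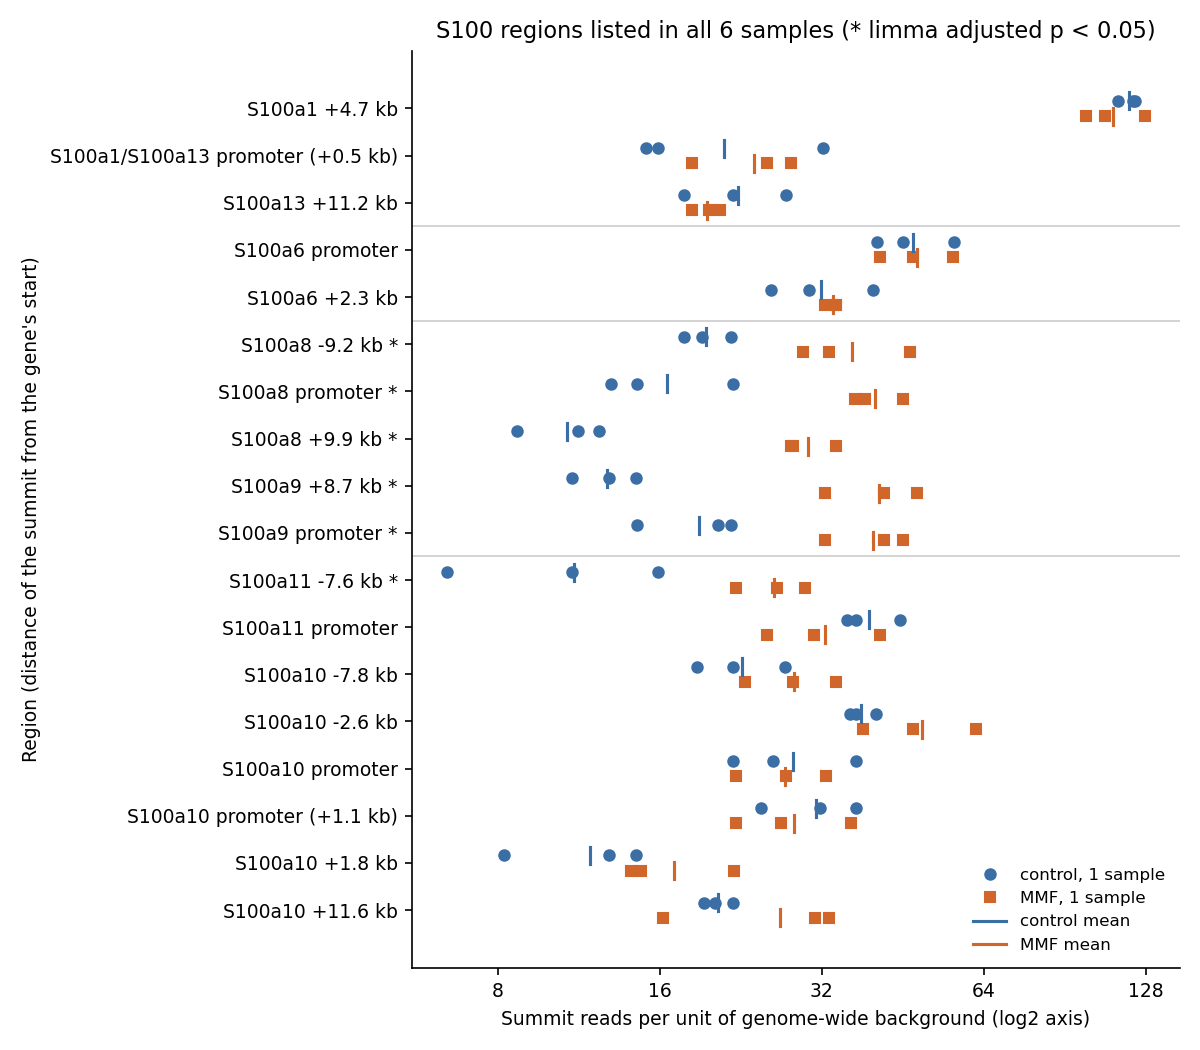
Reads per background in each sample (horizontal log2 axis) for the 18 S100 regions with a peak in all 6 lists, with blue circles for the 3 control samples, orange squares for the 3 MMF samples and vertical ticks for their means; stars mark an adjusted p below 0.05. The 5 regions of S100a8 and S100a9 and the region 7.6 kb upstream of S100a11 show circles and squares apart, and the other 12 show them mixed.

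S100a11 and S100a10, whose products pair with annexins, lie on the far side of the locus, and their windows held 11 regions with 8 in every list. One of the 8 rose. This region, 7.6 kb upstream of S100a11 and outside any coding gene (chr3:93512763-93513104), had 10.98, 15.9 and 6.45 reads per background in control samples and 26.4, 29.7 and 22.2 in MMF samples, a log2 difference of 1.32 ± 0.29 (limma, adjusted p = 0.0112). The value of control sample 3 rests on 4 reads. It was called in each of the fits that left out 1 sample, at adjusted p up to 0.0475, and after centring at 0.0435, but not by the fits on ranks or on the deposited fold enrichment (0.0940 to 0.211).

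Next to it, 8.5 kb upstream of S100a11, stood one of the 2 regions listed in all 3 MMF samples and no control (chr3:93511867-93512146), with 22, 24.1 and 13.3 reads per background and the AP-1 match shown above. A further region 9.2 kb upstream was listed in MMF samples 2 and 3, at 18.4 and 25.1. Of these 3 neighbouring regions upstream of S100a11, only the one that was called had been tested. The MMF lists are longer, so no reading is drawn from the others being listed with MMF alone.

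The S100a11 promoter itself went the other way in its means. It had 35.7, 44.8 and 37.1 reads per background in control samples and 25.3, 41.1 and 31.0 in MMF samples, groups that overlapped, with a log2 difference of -0.29 ± 0.21 (limma, adjusted p = 0.371). After centring the difference was -0.65 (limma, adjusted p = 0.0479), so that its call as lower exists under that scaling alone of the 12 alternatives. A region in the S100a11 intron, 1.2 kb into the gene, was listed in 2 control samples at 21.95 and 17.4 and in 2 MMF samples at 18.7 and 22.2.

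S100a10 encodes the light chain that joins annexin A2 in a tetramer, and all 6 regions of its window were in every list without one being called. Its promoter region (chr3:93554955-93555732) had 21.95, 26.0 and 37.1 reads per background in control samples and 27.5, 32.6 and 22.2 in MMF samples, which overlapped throughout. An intronic region 1.8 kb downstream of the second annotated start had the largest difference of the 12 regions that were not called, 0.53 ± 0.25 on the log2 scale (limma, adjusted p = 0.175), from 8.23, 14.5 and 12.9 to 22, 14.2 and 14.8. A second promoter region, 1.1 kb downstream of the first start (chr3:93555999-93556342), had 24.7, 31.8 and 37.1 reads per background in control samples and 36.3, 26.9 and 22.2 in MMF samples, with a log2 difference of -0.14 ± 0.23 (limma, adjusted p = 0.710). The log2 difference at the first start was -0.03, and those of the other 3 regions were 0.32 to 0.35, at levels of 16.3 to 62.1 reads per background, and in each region the groups overlapped.

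S100a4 and S100a6, genes of motile and dividing cells, have overlapping windows, which held 11 regions with 2 of them in every list. Neither was called, at log2 differences of 0.03 and 0.09 (limma, adjusted p = 0.946 and 0.786). The S100a6 promoter region (chr3:90612659-90613190) had 45.3, 40.5 and 56.4 reads per background in control samples and 56.1, 41.1 and 47.3 in MMF samples, the highest mean of any promoter in the set in both groups, although in MMF sample 2 the S100a8 and S100a9 promoters, at 45.3 each, were above it. Control and MMF samples covered nearly the same range there. A region in the S100a6 intron had 39.8, 30.4 and 25.8 and then 34.1, 34.0 and 32.5.

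The S100a4 promoter was weakly listed. It had 10.98, 11.6 and 12.9 reads per background in control samples at its start (chr3:90603516-90603885), 15.6 and 11.8 in MMF samples 2 and 3, and no peak in MMF sample 1, so it was not tested. A second region of this promoter, in the S100a4 intron (chr3:90604532-90604778), was listed in control samples 2 and 3 at 15.9 and 12.9 and in MMF sample 3 at 16.3. Beyond the end of S100a6, 14.3 kb from its nearest start, lay the other region listed in all 3 MMF samples and no control (chr3:90627427-90627789), at 25.3, 35.4 and 17.7. A smaller neighbour at 14.7 kb was listed in MMF samples 1 and 2, at 16.5 and 17.0. The remaining 4 regions of these windows, in introns of S100a3, S100a5 and S100a6, were listed in part of the samples at 7.70 to 24.1 reads per background.

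S100a1 and S100a13 are transcribed away from each other from starts 43 bp apart and share one promoter, so that both genes have the same values. Their windows held 5 regions with 3 in every list, and none was called (log2 differences from -0.17 to 0.25, limma, adjusted p of 0.598 or more). The promoter region in every list (chr3:90514800-90515238) had 15.1, 15.9 and 32.3 reads per background in control samples and 25.3, 18.4 and 28.1 in MMF samples. The region over the starts themselves (chr3:90514206-90514712) was listed in control sample 2 alone of the controls, at 23.1, and in all 3 MMF samples, at 38.5, 26.9 and 29.6. Farther out, a region 11.2 kb downstream of the S100a13 start had 17.7 to 27.5 in control samples and 18.4 to 20.7 in MMF samples, and a weak one in the S100a13 intron was listed in MMF sample 3 alone, at 10.4. By reads the highest region in the windows was not an S100 element: the Chtop promoter, 4.7 kb downstream of the S100a1 start, had 114, 122 and 122 in control samples and 127.6, 108 and 99.04 in MMF samples.

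**Figure D4:**
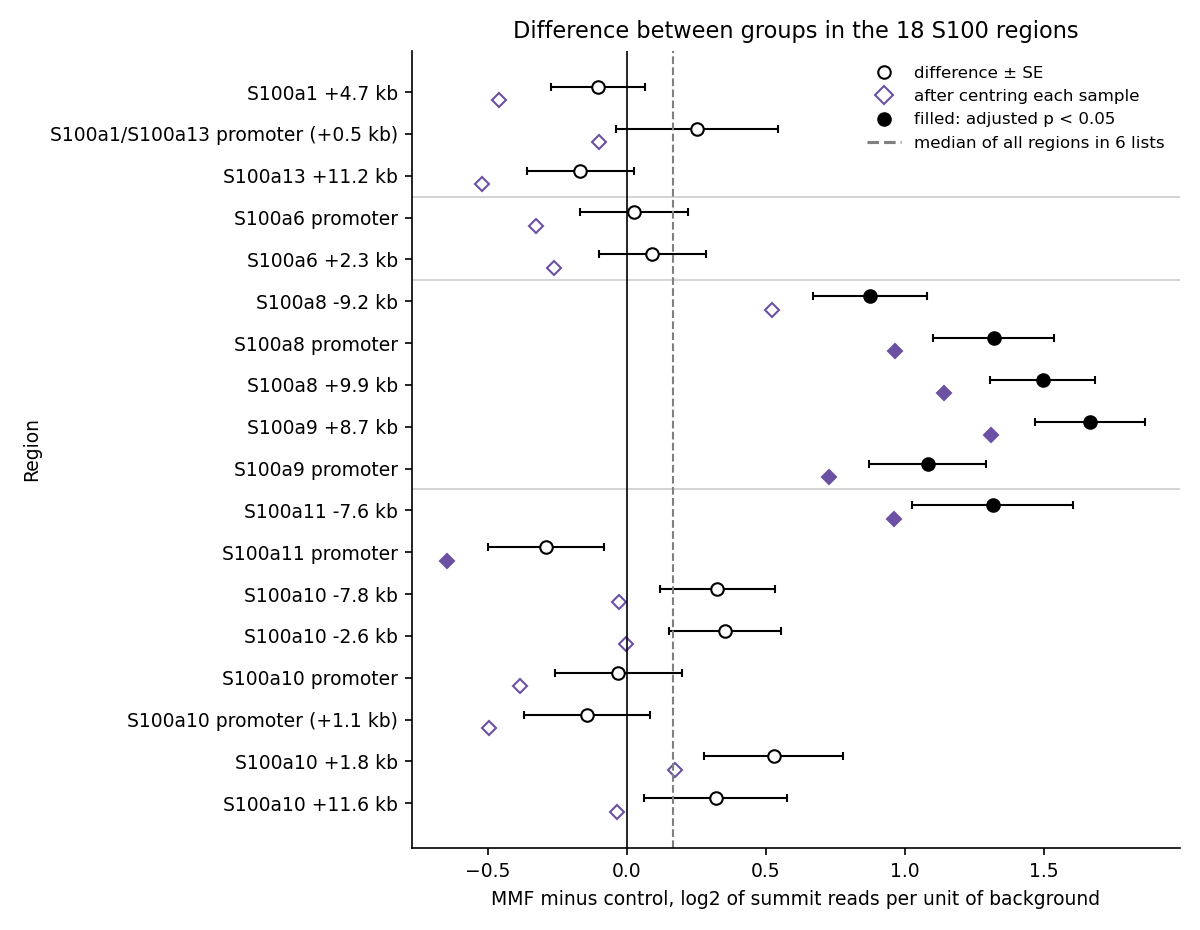
Difference between MMF and control in log2 reads per background (horizontal axis) for the 18 regions in every list, black circles with bars of 1 SE for the values scaled to background and purple diamonds for the values centred on each sample's median region, filled where the limma adjusted p is below 0.05; the dashed line is the median of all 41182 regions, 0.16. The filled circles lie between 0.88 and 1.67, the open ones between -0.29 and 0.53, and the S100a11 promoter is filled only as a diamond, at -0.65.

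Taken gene by gene at 1 kb on either side of the starts, with the strongest peak of each sample, 7 of the 8 genes had a promoter peak in all 6 lists. The mean was higher with MMF for 5 of the 7. Of these, S100a6 turned lower by rank, after division by the median region, and without control sample 1, control sample 2 or MMF sample 1. The pair S100a1 and S100a13 turned lower by rank in lists of equal length. Over all 11687 genes with such peaks 31.8% were higher and the median ratio of means was 0.933. Only S100a8 and S100a9 had every MMF sample above every control sample, which held for 6.18% of all genes, and none had the reverse, which held for 17.7%. For both genes the exact permutation test on the values gave p = 0.1, the smallest possible with 3 samples against 3. The ratio of means was 2.44 for S100a8, 2.11 for S100a9, 1.35 for S100a1 and S100a13, 1.02 for S100a6, 0.973 for S100a10 and 0.828 for S100a11.

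The genes that calprotectin and its relatives act through did not move together. Among 5 receptors and partners, Tlr4, Ager, Anxa1, Anxa2 and Myh9, 3 had promoter peaks in every list and none was called. Tlr4, a receptor of calprotectin, had 59.0, 55.0 and 61.3 reads per background in control samples and 78.1, 82.2 and 79.8 in MMF samples, with groups that did not overlap (log2 difference 0.46, limma, adjusted p = 0.068). Anxa2, the partner of S100A10, had 52.1, 59.3 and 51.6 and then 36.3, 45.3 and 38.4 (log2 difference -0.45, limma, adjusted p = 0.095). Of 5 genes for myeloid factors, Cebpa, Cebpb, Cebpd, Cebpe and Spi1, 4 were tested and none was called, with log2 differences from -0.31 for Cebpa to 0.48 for Spi1. All MMF values of Spi1, like those of Tlr4, lay above all control values, and those of Cebpa, like those of Anxa2, lay below. Of all genes with a promoter peak in all 6 lists, 6.18% lay above in this way and 17.7% below. The groups of Cebpb and Cebpd overlapped.

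Matches to the motifs of these factors were few in the S100 regions, so their shares rest on small counts. In the 200 bases around the summit a C/EBP match was found in 3 of 36 regions (8.33%) beside 15.0% of all regions, a PU.1 match in 3 (8.33%) beside 8.28%, a RUNX match in 4 (11.1%) beside 10.8%, an AP-1 match in 4 (11.1%) beside 16.1% and the NF-Y letters CCAAT in 6 (16.7%) beside 23.5%. In 500 bases around the summit the NF-Y share was 44.4% of S100 regions beside 48.3% of all, and the C/EBP share 19.4% beside 25.3%. There the PU.1 share was 13.9% beside 10.3%, the RUNX share 19.4% beside 17.5% and the AP-1 share 19.4% beside 23.1%. A KLF motif (CCNCNCCC) was found in 14 (38.9%) beside 25.0% in 200 bases, and in 17 (47.2%) beside 43.8% in 500 bases. Of the 3 C/EBP matches, 2 were in the calprotectin domain, both on the S100a9 side, and the other 1 was in the Chtop promoter. Median GC content was 50.3% around the S100 summits and 49.5% around all summits.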

How the data were processed

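ATAC-seq, which maps open chromatin by where the Tn5 transposase inserts adapters, had been performed on 3 control and 3 MMF samples of L-GMP cells. Per the labels and the study's methods, the authors mapped reads to mm10 (Bowtie2) and ran MACS2 on every sample by itself to call peaks, with FastQC and Trim Galore among their tools. Versions, options, read shifting and treatment of duplicates are not given in the sources used here. The deposited lists give for each peak a fold enrichment of the summit over local background (a ratio), a −log10 p-value and a −log10 q-value, with no counts.

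Peaks on chromosomes 1 to 19, X and Y were used (at most 0.270% of a list was left out). Summit reads and local background were solved from fold enrichment and p-value under the Poisson model of MACS2, and reads were divided by each list's commonest background. Peaks of all samples were merged. Regions in all 6 lists were tested on log2 reads per background with limma 3.58.1 in R 4.3.3 and Benjamini-Hochberg adjustment at 0.05, with samples grouped as labelled. Single values were compared by exact permutation tests, two-sided. The fit was also run on simulated normal values with known shifts. These differ from whole reads at listed peaks, so no support for the calls is drawn from that run. Sequences came from RefSeq's GRCm38. Motifs were searched with Python 3.11.15 on both strands, where overlaps between motifs were allowed, in 200 bases around the strongest sample's summit.

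The 8 genes, the marker lists and the measure were chosen with earlier results of these data known. Regions are named in full if they lie at a member's promoter, were listed in all samples of one group and none of the other, were called, or had one of the 5 largest differences. Alternatives were ranks, deposited fold enrichment, centred values, equal list lengths, a stricter q-value, other flanks, promoter widths and overlaps, fixed bins, a motif window of 500 bases, the replicate block, a trended prior (added after the data were seen) and each sample left out. One marker gene is not reported here.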

Additional observations from a re-analysis of the deposited data

How the results depend on the processing

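Of the alternatives to the S100 counts and the share of peaks, 11 changed a count by over 1.5 times or moved a value by over 1 SD, and 63 did not. The S100 regions called higher with MMF fell from 6 to 2 when limma ran on ranks of fold enrichment or on deposited fold enrichment and to 3 on ranks of −log10 p, and numbered 5 or 6 when single samples were left out. The calls that remained on ranks of fold enrichment were the pair of regions between S100a8 and S100a9. Regions called lower numbered 0, except 1 after centring. Over all regions, 7701 were called higher and 397 lower against 2842 and 5523 after centring, 2402 and 76 on ranks of fold enrichment, 3923 and 104 on ranks of −log10 p, 4642 and 97 on deposited fold enrichment, and 8890 and 1113 with a trended prior. With single samples left out they were 4742 to 7375 and 189 to 252, the fewest higher without MMF replicate 2 and the fewest lower without MMF replicate 1, so the genome-wide share beside the S100 calls moves with the samples kept. Regions listed in every MMF sample and no control, 2 in all, numbered 1 in lists of equal length, 5 in fixed bins of 500 bp, 1 with flanks of 5 kb, 4 with flanks of 20 kb and 2 to 5 when a sample was left out, the 5 without MMF replicate 3. S100 promoters with a higher mean numbered 2 by rank in lists of equal length. The share of peaks in the windows turned to 0.00114 percentage points in lists of equal length. The cause of these differences was not tested.

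Samples of both groups carry the same replicate numbers. Deviations of same-numbered samples had correlations of 7.96e-05, 0.00369 and -0.00127, and those of the other pairs ran from -0.00492 to 0.00484. On summits of few reads, values so near nothing in every pair cannot tell whether the numbers pair the samples. With the replicate block limma called 6 S100 regions higher and 0 lower, and the share of peaks differed by -0.00451 percentage points (exact permutation over 3 pairs, p = 0.25, the smallest possible).

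Summits of 4 to 38 reads in the regions called limit the precision of each value, and a region without a listed peak in a sample has no value rather than a low one. Depth in mapped reads is not known. Promoter differences of S100a6 changed sign under 6 alternatives and that of S100a10 under 2.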

Other observations

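Other S100 genes of the annotation lie in or near the windows or on other chromosomes. Of 9, S100a2 and S100a3 had a promoter peak in all 6 lists, S100a5 in 2 lists and the other 6, S100a7a, S100a14, S100a16, S100b, S100g and S100z, in none. The S100a2 promoter had 37.1, 28.9 and 48.4 reads per background in control samples and 59.4, 55.3 and 59.1 in MMF samples, groups that did not overlap (log2 difference 0.63, limma, adjusted p = 0.0526). S100a3 had 74.1, 91.1 and 72.6 and then 82.5, 65.2 and 79.8, with groups that overlapped (log2 difference -0.06, limma, adjusted p = 0.844).

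Between the windows of S100a9 and S100a11 lie 2.80 Mb with 60 coding genes, 36 of them of the Sprr and Lce families, with Lor, Flg and Ivl, genes of the cornified layer of skin. This stretch held 28 of all merged regions. Control lists held 14, 14 and 13 peaks there and MMF lists 20, 20 and 23, or 0.464 to 0.499 and 0.713 to 0.820 peaks per 100 kb, beside 13.8 to 17.3 per 100 kb over the S100 windows (exact permutation test of the number of peaks in the stretch, p = 0.1, the smallest that 3 samples against 3 can give). The S100 windows on its borders were thus far denser in peaks than the stretch itself in every sample. As a share of each list, which is longer with MMF, the stretch held 0.0222% ± 0.000321 of control peaks and 0.0249% ± 0.00305 of MMF peaks (SD, n = 3 each, exact permutation p = 0.1). Of the erythroid markers reported, Klf1 had a promoter peak in all 6 lists, with groups that overlapped, and Gata1 in none.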
